A study of Mus musculus with 8 samples.

Results

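The genes described are classical and nonclassical MHC class I heavy chains of the mouse, chosen by name from the H2 locus. Earlier results of these data were known when they were chosen. They are the classical *H2-K1* and *H2-D1* and the nonclassical *H2-Q4*, *H2-Q6*, *H2-Q7*, *H2-T10*, *H2-T22*, *H2-T23*, *H2-T24* and *H2-M3*, 10 of the 22520 rows of the expression table. All 10 had a row, and all 10 passed the filter on low values, which asked for 1 FPKM or more in at least 4 of the 8 libraries. FPKM is the number of fragments of a gene scaled by its transcript length and by the fragments mapped in the library.

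The RNA came from CD8+ T cells of mouse spleen, isolated by removing the other cells and kept under T cell receptor stimulation with IL-2. From day 3 of culture the cells received 40 µM DADA or an equal volume of DMSO, and both groups were harvested on day 6, with 4 biological replicates in each. DADA is diisopropylamine dichloroacetate, an inhibitor of the pyruvate dehydrogenase kinases that hold pyruvate out of the mitochondrial TCA cycle. The genotype tag of the DMSO samples reads "control" and that of the DADA samples "model", and no allele, strain, sex or age is given in the labels. The labels do not say whether the replicates are separate mice or separate cultures, so the p-values measure the spread between these 8 libraries. The treated cells had been stimulated for 3 days before DADA was added, and no unstimulated cells were analysed here.

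A class I molecule is a heavy chain paired with β2-microglobulin, with a peptide held in a groove of the heavy chain. Peptides cut by the proteasome are pumped into the endoplasmic reticulum by the TAP transporter, where tapasin, calreticulin and ERp57 hold the empty heavy chain until a peptide fits. The classical molecules show peptides of the cell's own proteins to CD8+ T cells, and the nonclassical ones vary less between strains and present narrower sets of ligands, some of them to natural killer and γδ T cells. T cells carry class I themselves, and type I and II interferons, NF-κB and the NLRC5 enhanceosome are known to drive the heavy chain genes through short promoter elements.

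Those elements are shown first, in the 200 bases before the start of 6 of the genes, chosen to cover the classical pair, 1 H2-Q gene, the 2 H2-T genes with a promoter in the table, and *H2-M3*. The sequences are from RefSeq on GRCm38.p6 and run 5′ to 3′ along the gene. Capitals mark the NF-κB site (GGG and TTCCC with 2 bases between them), the interferon regulatory factor core (AANNGAAA, here on the opposite strand as TTTCNNTT), the interferon-stimulated response element core (GAAA and GAAA with 2 bases between them, which contains the former) and the X2 box core (TGACGC).
H2-K1 promoter, chr17:34000334-34000533, minus strand: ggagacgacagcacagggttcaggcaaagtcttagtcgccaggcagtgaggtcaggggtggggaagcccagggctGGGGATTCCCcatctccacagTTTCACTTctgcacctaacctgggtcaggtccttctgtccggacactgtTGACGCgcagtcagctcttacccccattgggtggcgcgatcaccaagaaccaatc
H2-D1 promoter, chr17:35262894-35263093, plus strand: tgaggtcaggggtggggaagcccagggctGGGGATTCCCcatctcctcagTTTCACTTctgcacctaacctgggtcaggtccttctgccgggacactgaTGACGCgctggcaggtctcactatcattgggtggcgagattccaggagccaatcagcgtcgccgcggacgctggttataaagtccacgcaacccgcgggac
H2-Q4 promoter, chr17:35379417-35379616, plus strand: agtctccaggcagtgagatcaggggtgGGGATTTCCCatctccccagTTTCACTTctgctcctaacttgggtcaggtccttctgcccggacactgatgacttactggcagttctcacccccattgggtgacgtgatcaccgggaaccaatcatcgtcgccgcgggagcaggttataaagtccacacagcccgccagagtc
H2-T22 promoter, chr17:36042743-36042942, minus strand: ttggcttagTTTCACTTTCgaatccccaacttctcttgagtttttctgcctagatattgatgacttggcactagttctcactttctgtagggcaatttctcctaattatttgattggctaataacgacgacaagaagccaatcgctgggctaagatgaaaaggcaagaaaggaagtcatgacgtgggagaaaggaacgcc
H2-T23 promoter, chr17:36032702-36032901, minus strand: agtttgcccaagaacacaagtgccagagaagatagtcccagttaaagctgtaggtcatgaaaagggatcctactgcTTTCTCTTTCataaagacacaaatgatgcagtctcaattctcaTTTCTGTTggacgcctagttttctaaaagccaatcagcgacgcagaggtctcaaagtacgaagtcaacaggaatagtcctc
H2-M3 promoter, chr17:37270034-37270233, plus strand: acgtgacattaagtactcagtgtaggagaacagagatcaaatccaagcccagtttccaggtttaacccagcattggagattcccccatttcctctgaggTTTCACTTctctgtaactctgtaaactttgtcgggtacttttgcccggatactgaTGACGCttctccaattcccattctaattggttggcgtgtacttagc

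The search covered both strands of 300 bases, 250 before and 50 after the start, in the 8 members that RefSeq's promoter table holds (all but *H2-T10* and *H2-T24*). The interferon regulatory factor core stood in all 8, against 23.9% of the 32851 promoters of that table, and in 7 of them its letters were TTTCACTT. The exception was *H2-T23*, with TTTCTCTT and TTTCTGTT. This core was added to the search after the sequences had been seen, and the 8 promoters belong to related genes. Its count is therefore a description and no test against the other promoters. The full interferon-stimulated response element core was found only in *H2-T22* and *H2-T23*, against 3.44% of all promoters. The NF-κB site was found in *H2-K1*, *H2-D1*, *H2-Q4*, *H2-Q6* and *H2-Q7*, against 1.75%. The X2 box core was found in *H2-K1*, *H2-D1*, *H2-Q4* and *H2-M3*, against 7.40%, and in *H2-Q4* it lay after the start, outside the stretch shown. A CCAAT box stood in all 8, against 37.4%. Outside the 10 genes, *H2-Q10* held only the interferon regulatory factor core, and *H2-Q2* that core and a CCAAT box. *B2m* held the full interferon-stimulated response element core and a CCAAT box, and *Tap1* a CCAAT box alone. These matches describe letters and show no binding.

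Of the 10 heavy chain genes, 9 were higher with DADA, none was lower and 1, *H2-T10*, was not called. A call is an adjusted p under 0.05 in a limma fit over all 10666 genes tested, in which 66.2% of genes were called, 30.9% as higher and 35.3% as lower. The DMSO and DADA libraries did not overlap for the same 9 genes, where 60.6% of all tested genes did not overlap and 28.4% did so with DADA higher. The median difference of the 10 genes was 0.55 on the log2(FPKM + 1) scale, against -0.02 over all genes tested. All fold changes given as log2 are on that scale, which understates the change of genes with low values. In bulk RNA, a changed share of some cells and a changed amount of RNA per cell cannot be told apart.

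**Figure D1:**
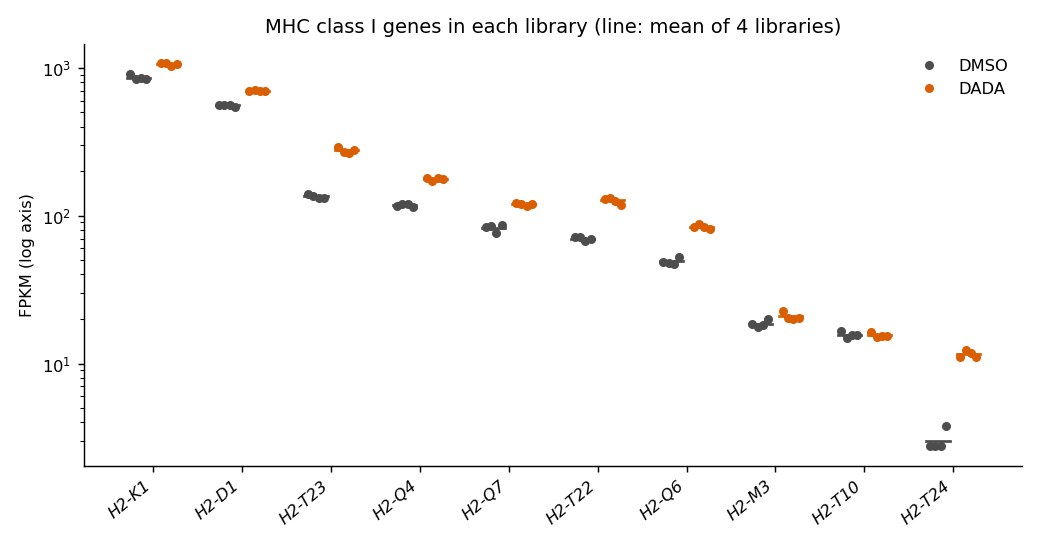
FPKM of the 10 class I heavy chain genes, with 1 point for each of the 4 DMSO and 4 DADA libraries and a bar at each group's mean. Only for H2-T10 do the groups overlap; H2-T24 has the lowest level in both groups, at 3.01 and 11.6 FPKM.

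The classical genes were the most abundant of the 10 and rose by similar proportions. *H2-K1* (ENSMUSG00000061232) stood at 900.4, 842, 848 and 836 FPKM with DMSO and at 1073, 1074, 1032 and 1058 FPKM with DADA. Every DADA library was above every DMSO library, and the highest DMSO value, in replicate 1, lay well below the lowest DADA value. The mean went from 857 ± 29.6 to 1059 ± 19.4 FPKM (SD, n = 4), 23.7% higher, with a log2 difference of 0.31 (SE 0.0277; limma, adjusted p = 5.17e-06).

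*H2-D1* (ENSMUSG00000073411), the other classical heavy chain measured, stood at 558, 562, 558 and 546 FPKM with DMSO and at 701, 708, 691 and 696 FPKM with DADA. The replicates were tight and the groups far apart. Its mean rose from 556 ± 7.04 to 699 ± 6.98 FPKM (SD, n = 4), 25.7% higher, with a log2 difference of 0.33 (SE 0.0189; limma, adjusted p = 1.81e-07). The ratio of *H2-K1* to *H2-D1* within a library did not change beyond its spread. Its log2 value was 0.62 ± 0.0463 with DMSO and 0.60 ± 0.0155 with DADA (SD, n = 4), a difference of -0.02 (exact permutation test, two-sided, p = 0.429).

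All 3 H2-Q genes rose, with log2 differences from 0.52 to 0.77. *H2-Q4* (ENSMUSG00000035929), the gene of the Qb-1 molecule, stood at 117, 120.2, 119 and 115 FPKM with DMSO and at 181, 172, 179 and 177 FPKM with DADA. The groups were far apart, and the mean was 50.4% higher with DADA, from 118 ± 2.43 to 177 ± 3.91 FPKM (SD, n = 4), with a log2 difference of 0.58 (SE 0.0241; limma, adjusted p = 1.72e-08).

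*H2-Q7* (ENSMUSG00000060550) and *H2-Q6* (ENSMUSG00000073409) belong to the Qa-2 genes, whose best known product is held in the membrane by a lipid anchor. *H2-Q7* was at 83.9, 85.3, 75.9 and 87.1 FPKM with DMSO and at 121, 119.7, 116 and 119.4 FPKM with DADA. DMSO replicate 3 was the lowest library and the groups did not overlap. On average it rose from 83.0 ± 4.95 to 119 ± 2.30 FPKM (SD, n = 4), with a log2 difference of 0.52 (SE 0.0400; limma, adjusted p = 1.68e-06).

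*H2-Q6* was lower than *H2-Q7* in every library, at 48.9, 47.7, 47.2 and 52.1 FPKM with DMSO and at 84.3, 87.4, 84.0 and 80.9 FPKM with DADA. Again all 4 DADA libraries were above all 4 DMSO libraries. Its mean rose from 49.0 ± 2.21 to 84.2 ± 2.63 FPKM (SD, n = 4), 71.7% higher, with a log2 difference of 0.77 (SE 0.0355; limma, adjusted p = 3.86e-08).

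The widest range of responses was among the H2-T genes, from no call to a 3.84-fold higher mean. *H2-T23* (ENSMUSG00000067212) encodes Qa-1, which presents a leader peptide of classical heavy chains to the CD94/NKG2A receptor. It stood at 139.9, 136, 132.6 and 132.6 FPKM with DMSO and at 289, 271, 267 and 277 FPKM with DADA. The lowest DADA library was far above the highest DMSO library. The mean went from 135 ± 3.46 to 276 ± 9.62 FPKM (SD, n = 4), 2.04-fold, with a log2 difference of 1.02 (SE 0.0294; limma, adjusted p = 1.15e-09).

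*H2-T22* (ENSMUSG00000056116) and *H2-T10* (ENSMUSG00000079491) encode closely similar molecules that hold no peptide and are ligands of some γδ T cell receptors. *H2-T22* stood at 71.6, 71.1, 67.4 and 69.2 FPKM with DMSO and at 129.8, 132, 126 and 118 FPKM with DADA. Its groups were far apart, with means of 69.8 ± 1.90 and 127 ± 6.10 FPKM (SD, n = 4) and a log2 difference of 0.85 (SE 0.0361; limma, adjusted p = 2.17e-08). *H2-T10* stood at 16.5, 14.8, 15.6 and 15.6 FPKM with DMSO and at 16.4, 15.0, 15.4 and 15.3 FPKM with DADA.

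The *H2-T10* libraries of both groups were intermixed. Its means were 15.6 ± 0.700 and 15.5 ± 0.608 FPKM (SD, n = 4), and its log2 difference was -0.01, with a 95% interval from -0.10 to 0.08 (limma, adjusted p = 0.872). The *H2-T10* to *H2-T22* ratio fell by 0.86 on the log2 scale, from -2.09 ± 0.0676 to -2.95 ± 0.0804 (SD, n = 4; exact permutation test, two-sided, p = 0.0286, the smallest that 70 assignments allow). Adjusted over the 6 pairs of members compared, that p was 0.0429.

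*H2-T24* (ENSMUSG00000053835) was the least abundant member and the one with the greatest log2 difference. It stood at 2.75, 2.75, 2.75 and 3.79 FPKM with DMSO and at 11.1, 12.4, 11.7 and 11.1 FPKM with DADA. DMSO replicate 4 stood above the other DMSO libraries and far below the lowest DADA library. The mean went from 3.01 ± 0.520 to 11.6 ± 0.619 FPKM (SD, n = 4), with a log2 difference of 1.65 (SE 0.0824; limma, adjusted p = 6.66e-08). Read as fragments at the estimated depth, these values rest on about 80.7 to 126 fragments in a DMSO library and 397 to 517 in a DADA library, against 18435 or more for *H2-K1*.

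*H2-M3* (ENSMUSG00000016206), which presents peptides that begin with N-formylmethionine, made by bacteria and mitochondria, showed the least change among the genes called. It stood at 18.6, 17.7, 18.1 and 19.9 FPKM with DMSO and at 22.6, 20.3, 20.05 and 20.4 FPKM with DADA. The groups only just did not overlap, and DADA replicate 1 stood above the other DADA libraries. The mean went from 18.6 ± 0.947 to 20.8 ± 1.18 FPKM (SD, n = 4), 12.3% higher, with a log2 difference of 0.16 (SE 0.0472; limma, adjusted p = 0.0132). Without DADA replicate 1 the difference was 0.12 (limma, adjusted p = 0.0318).

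**Figure D2:**
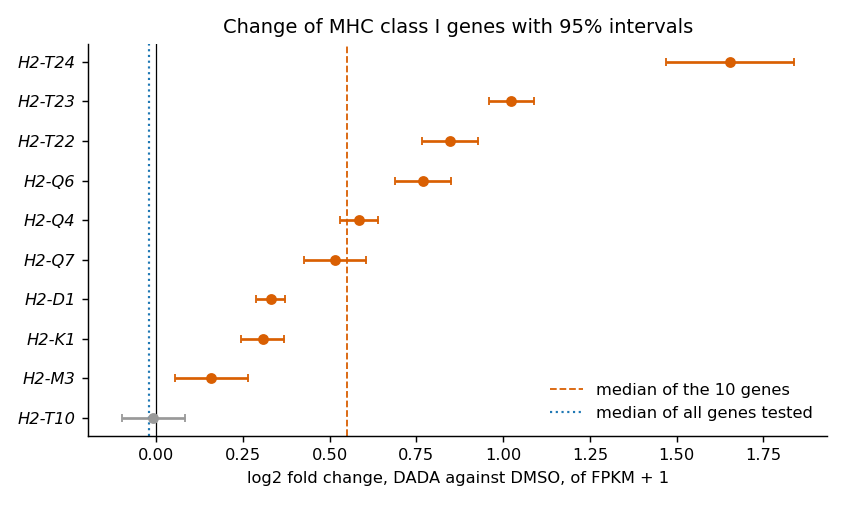
Log2 difference, DADA minus DMSO on the log2(FPKM + 1) scale, of the 10 class I heavy chain genes with 95% intervals from limma, 4 libraries in each group. H2-T24 is highest at 1.65, H2-T23 is at 1.02, the classical H2-K1 and H2-D1 are at 0.31 and 0.33, and the interval of H2-T10 spans 0.

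Summed over the 10 genes, the heavy chain level was 1958, 1899, 1885 and 1877 FPKM with DMSO and 2629, 2612, 2542 and 2573 FPKM with DADA. The mean sum was 1905 ± 36.6 and 2589 ± 38.7 FPKM (SD, n = 4), 35.9% higher with DADA. The classical pair made 1413 ± 32.5 and 1758 ± 25.7 FPKM of it, a 24.5% difference, and the 8 nonclassical genes 492 ± 9.15 and 831 ± 17.1 FPKM, a 68.8% difference. The nonclassical share of the sum was thus 25.8 ± 0.470% with DMSO and 32.1 ± 0.354% with DADA (SD, n = 4). Within it, *H2-T23* went from 7.10% to 10.7% of the sum, while *H2-K1* went from 45.0% to 40.9% and *H2-D1* from 29.2% to 27.0%. FPKM is a level per length, so levels of different genes can be set side by side, within the limits on shared sequence given further on.

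The order of the levels was nearly the same in both groups. With DMSO it ran *H2-K1*, *H2-D1*, *H2-T23*, *H2-Q4*, *H2-Q7*, *H2-T22*, *H2-Q6*, *H2-M3*, *H2-T10* and *H2-T24*, and no neighbours in that order overlapped. With DADA, *H2-T22* and *H2-Q7* changed places, and those neighbours were the only ones whose ranges overlapped. The coefficient of variation within a group ran from 0.999% to 17.2% over the 10 genes, the latter for *H2-T24* with DMSO.

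Members were also set against each other within each library, as the log2 difference of their FPKM values, for 6 pairs in all. The *H2-Q6* to *H2-Q7* difference went from -0.75 ± 0.0637 to -0.49 ± 0.050 and the *H2-T23* to *H2-M3* difference from 2.80 ± 0.0859 to 3.67 ± 0.0327 (SD, n = 4). The *H2-T23* to *H2-T24* difference went from 5.09 ± 0.198 to 4.46 ± 0.11 (SD, n = 4). Each of these 3 pairs separated the groups completely (exact permutation test, two-sided, p = 0.0286, adjusted p = 0.0429 over 6 pairs). The *H2-Q4* to *H2-Q7* difference, 0.50 ± 0.104 and 0.57 ± 0.0435 (SD, n = 4), overlapped between the groups (exact permutation test, two-sided, p = 0.257, adjusted p = 0.309). So *H2-T23* rose by more than *H2-M3* and by less than *H2-T24*. *H2-Q6* rose by more than *H2-Q7*, and *H2-T22* rose relative to *H2-T10*. No such difference was detected within the classical pair or between *H2-Q4* and *H2-Q7*.

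**Figure D3:**
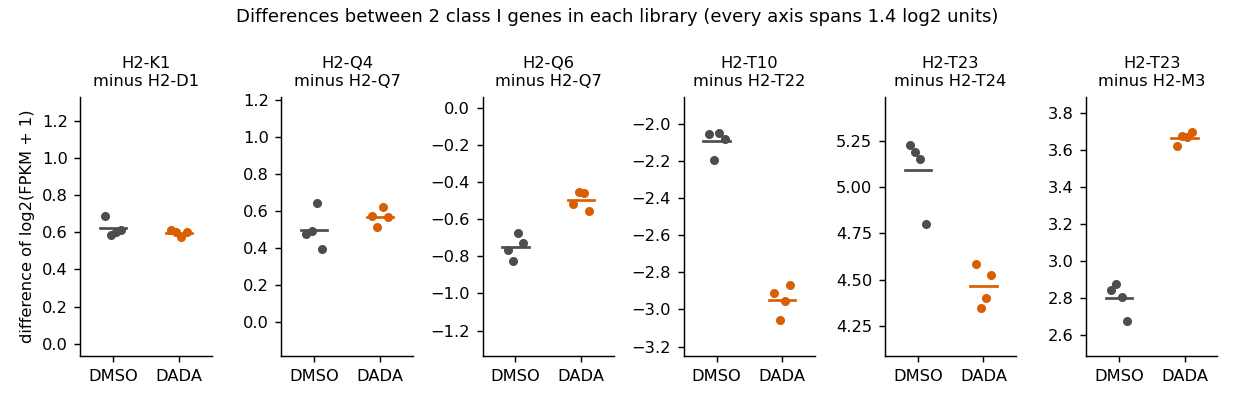
Within-library log2 difference between the members of 6 pairs, with 1 point per library and 4 libraries in each group. H2-K1 against H2-D1 and H2-Q4 against H2-Q7 overlap between DMSO and DADA; the other 4 pairs do not.

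Class I genes share long stretches of sequence, and how the authors' counting treated fragments that match several genes is not given in the sources used here. In GENCODE M21 transcripts, 44.7% of the 50-base windows of *H2-T22* and 42.9% of those of *H2-T10* occur in another gene, mostly in each other. For *H2-Q7* and *H2-Q6* the shares are 34.9% and 32.0%, for *H2-T23* 28.8%, for *H2-Q4* 24.3%, for *H2-D1* 14.3% and for *H2-K1* 8.79%. *H2-T24* and *H2-M3* are nearly unique, at 3.23% and 0.576%. At 150 bases, the length of 1 read, the highest shares are 9.68% for *H2-Q7* and 5.99% for *H2-Q6*, and those of *H2-T22* and *H2-T10* are 0.931% and 1.13%.

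The values of *H2-Q6* against *H2-Q7* and of *H2-T10* against *H2-T22* are therefore uncertain where fragments were split between copies. Added together before the fit, *H2-Q6* and *H2-Q7* went from 132 ± 6.66 to 203 ± 3.68 FPKM (SD, n = 4), a log2 difference of 0.62 (SE 0.0348; limma, adjusted p = 1.57e-07). *H2-T10* and *H2-T22* together went from 85.5 ± 2.12 to 142 ± 6.23 FPKM (SD, n = 4), a log2 difference of 0.73 (SE 0.0335; limma, adjusted p = 3.78e-08). Both sums rose. The copies differ in transcript length, so a sum of FPKM depends less on how fragments were divided within its pair, but is not free of it. The close relatives *H2-Q8*, *H2-Q9* and *H2-T9* had no row under these names in the expression table. How any fragments from them were counted is not given in the sources used here. Annotated antisense genes overlap 496 bases of the exons of *H2-Q4* (*Gm11131*), 925 of those of *H2-T10* (*BC023719*) and 1003 of those of *H2-T22* (*A930015D03Rik*), and whether strand was used in counting is not given in the sources used here.

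A further 20 rows of the table carry other class I heavy chain genes. Of these, 8 were listed at 0 in every library and 6 passed the filter. *H2-Q1*, *H2-Q5*, *H2-Q10* and *H2-T25* were called higher and *H2-Bl* lower, where 30.9% of all tested genes were higher and 35.3% lower. *H2-Q2* is left out of these calls for the reason given below. *H2-Q10*, best known as a soluble class I molecule made by the liver, stood at 2.40, 2.27, 2.37 and 2.09 FPKM with DMSO and at 30.5, 29.8, 30.6 and 29.6 FPKM with DADA. All DADA libraries were far above all DMSO libraries, with a 13.2-fold higher mean and a log2 difference of 3.24 (limma, adjusted p = 4.07e-12). *H2-Q2* was near the limit of detection with DMSO, at 0.163, 0.523, 0.456 and 0.281 FPKM, about 3.17 to 10.9 fragments a library, and at 10.5, 11.8, 10.2 and 11.8 FPKM with DADA. Its groups did not overlap and its log2 difference was 3.16. It passed the filter only through the DADA libraries, where it was high, so no test is given for it.

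Neither of these genes was in the chosen 10. Of the windows of 50 bases, 8.74% for *H2-Q2* and 8.03% for *H2-Q10* occur in another gene. *H2-Q5*, which RefSeq lists as a transcribed pseudogene, went from 34.7 ± 2.44 to 56.0 ± 2.36 FPKM (SD, n = 4; log2 difference 0.68). *H2-Q1* and *H2-T25* were both at 0.38 on the log2 scale, the latter from 1.14 to 1.77 FPKM (limma, adjusted p = 0.00729). For *H2-T25* the difference was 0.61 with a pseudocount of 0.1, and 0.20 after quantile normalization, where it was not called (limma, adjusted p = 0.0809). *H2-Bl* fell by 0.22 on the log2 scale (limma, adjusted p = 0.0361), with overlapping groups, was at -0.36 after quantile normalization, and lost its call in 8 of 17 alternatives, among them each fit that left out 1 library except DMSO replicate 1 or DADA replicate 3.

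The partner chain and the loading machinery rose with the heavy chains. Of 9 genes listed for the light chain and peptide loading, 8 were higher and 1 lower, where 30.9% of all tested genes were higher and 35.3% lower. Their median log2 difference was 0.39, against -0.02 over all genes tested. *B2m*, the light chain of every class I molecule, stood at 1439.9, 1497, 1439 and 1498 FPKM with DMSO and at 1926, 2049, 2020.1 and 2034 FPKM with DADA, a log2 difference of 0.45 (limma, adjusted p = 2.53e-07). The ratio of the summed heavy chains to *B2m* was 1.298 ± 0.0478 with DMSO and 1.291 ± 0.0498 with DADA (SD, n = 4), so the sum and its partner moved by nearly the same proportion.

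Tapasin, encoded by *Tapbp*, tethers the empty heavy chain to the peptide transporter and rose most in the list, from 56.5 ± 2.40 to 115 ± 2.62 FPKM (SD, n = 4), a log2 difference of 1.01 (limma, adjusted p = 2.43e-09). *Tap1*, a subunit of that transporter, went from 84.9 ± 1.37 to 140.1 ± 2.54 FPKM (SD, n = 4), a log2 difference of 0.72 (limma, adjusted p = 1.86e-09). The chaperones were also higher, *Calr* by 0.52 and *Pdia3*, the gene of ERp57, by 0.25 on the log2 scale. The exception was *Erap1*, which trims peptides in the endoplasmic reticulum and fell by 0.26 on the log2 scale (limma, adjusted p = 3.58e-04).

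The proteasome genes that cut class I peptides did not move as a block. Of the 5 genes of the immunoproteasome and the proteasome activator, 2 were higher, 2 lower and 1 not called, with a median of 0.08. The shares over all tested genes were 30.9% higher and 35.3% lower. *Psmb9* and *Psme1* were higher by 0.19 and 0.15 on the log2 scale. *Psme2* fell by 0.21 and *Psmb8* by 0.10, and *Psmb8* lost its call after quantile normalization (limma, adjusted p = 0.0814).

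Of 13 transcriptional regulators of class I, 7 were higher, 3 lower and 3 not called, where 30.9% of all tested genes were higher and 35.3% lower. *Nlrc5*, the coactivator of the class I genes, was at 28.8, 29.5, 31.3 and 30.1 FPKM with DMSO and at 28.9, 27.6, 29.5 and 27.7 FPKM with DADA, with overlapping groups and a log2 difference of -0.07 (limma, adjusted p = 0.0867; 0.0474 without DMSO replicate 1). The NF-κB subunits differed in direction: *Rela* rose by 0.33 and *Nfkb1* fell by 0.45 on the log2 scale. The regulators' median log2 difference was 0.11, below that of the heavy chains.

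**Figure D4:**
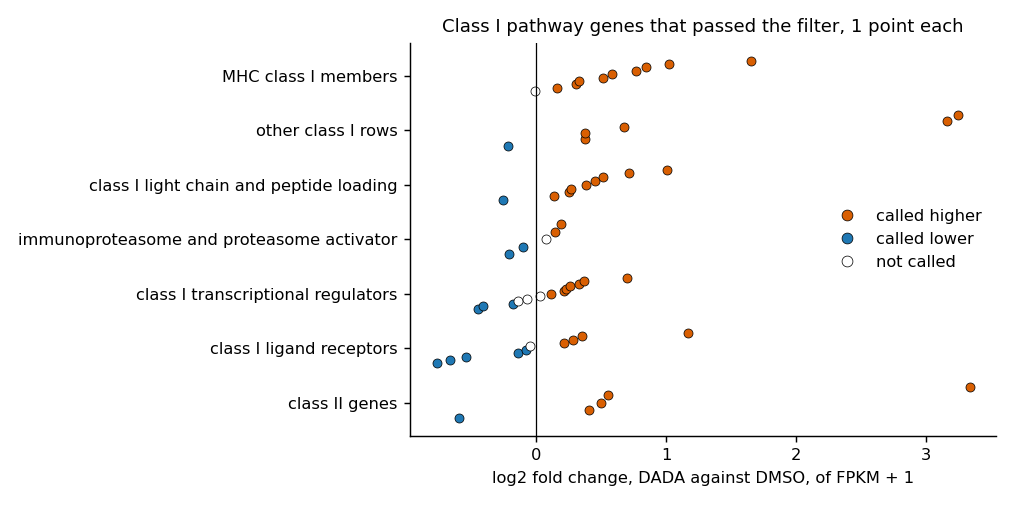
Log2 difference, DADA minus DMSO on the log2(FPKM + 1) scale, with 1 point for each tested gene of the heavy chains and of the listed gene groups of the class I pathway. Most heavy chain and loading genes lie above 0, and the proteasome genes and regulators lie on both sides of it.

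The next list held receptors for class I or class I-like ligands and relatives of such receptors, not all of them known to bind class I. Of 15 listed, 10 were tested, 4 were higher, 5 lower and 1 not called. The 5 include *Klra3*, at 1.04 to 1.77 FPKM with DMSO and 0.381 to 1.07 FPKM with DADA. It passed the filter only through the DMSO libraries, where it was higher, so its call carries no weight. Over all tested genes, 30.9% were called higher and 35.3% lower. The CD8 co-receptor chains, which bind classical class I, were higher, *Cd8a* from 126 ± 1.93 to 154 ± 5.44 and *Cd8b1* from 151 ± 3.22 to 193 ± 3.38 FPKM (SD, n = 4), log2 differences of 0.28 and 0.35. Of the receptor for Qa-1, *Klrc1*, the NKG2A chain, fell from 29.8 ± 0.562 to 18.4 ± 0.736 FPKM (SD, n = 4), a log2 difference of -0.67 (limma, adjusted p = 6.59e-08). Its partner *Klrd1*, the CD94 chain, was lower by a smaller step, -0.14 (limma, adjusted p = 0.0129), with overlapping groups, and lost its call when libraries were rescaled to a common total (adjusted p = 0.0502, limma) or quantile normalized (adjusted p = 0.0595, limma). So the gene of the Qa-1 heavy chain was higher and that of its inhibitory receptor chain lower in the same libraries.

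*Klra7*, a Ly49 receptor gene, fell by 0.77 on the log2 scale, and *Lilrb4a*, an inhibitory receptor gene of the LILRB family, rose by 1.17, from 21.1 ± 0.953 to 48.8 ± 3.95 FPKM (SD, n = 4). Whether the *Lilrb4a* product binds class I was not tested. *Klrk1*, the gene of NKG2D, was at -0.08 (limma, adjusted p = 0.0277), with overlapping groups, and that call was lost in 8 of 18 alternatives. Class I-like genes encoded away from the H2 locus were low or not tested: of 7, 3 were tested. Among these *Procr* was higher by 0.86 (1.297 with a pseudocount of 0.1). *Cd1d1* fell by 0.31 on the log2 scale (-0.52 with a pseudocount of 0.1 and -0.56 after quantile normalization), from 1.28 to 1.76 FPKM with DMSO to 0.861 to 1.11 FPKM with DADA. It passed the filter only through the DMSO libraries, where it was higher, so no test result is given for it. *Mr1* was not called, at -0.13 (limma, adjusted p = 0.0669, but 0.0121 without DADA replicate 4 and 0.00597 after quantile normalization).

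Genes of the class II pathway, most of them in the H2 locus, were set beside them. Of 11, 5 were tested, 4 higher and 1 lower, where 30.9% of all tested genes were higher and 35.3% lower. *H2-Ab1* went from 3.48 ± 0.496 to 44.0 ± 2.71 FPKM (SD, n = 4), a log2 difference of 3.33 (limma, adjusted p = 2.94e-10), while the gene of its partner chain, *H2-Aa*, was at 0.151 FPKM or less in all libraries. *Cd74*, the invariant chain, fell by 0.59 on the log2 scale, and *H2-DMa* rose by 0.41.

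The markers of the labelled cell type were present and those of other cells low. Of the 5 CD8 T cell markers measured, all 5 were called higher with DADA, against 30.9% of all tested genes. Their summed level was 674 to 680.1 FPKM with DMSO and 776 to 805 FPKM with DADA. B cell markers summed to 2.78 to 3.76 and 3.23 to 4.40 FPKM, with *Pax5* at 0, and 0 of the 1 tested, *Cd79b*, was called. Within that list *Ebf1* did not reach the filter but moved with the heavy chains, at 0.183 to 0.313 FPKM with DMSO and 0.866 to 1.42 FPKM with DADA, without overlap, and its part in their difference was not tested. Of 8 myeloid and dendritic markers none passed the filter, with sums of 0 to 0.138 and 0.168 to 0.314 FPKM and *Csf1r* and *Adgre1* at 0. Of the rest, *Flt3*, *Xcr1* and *Itgam* were higher with DADA without overlap. Their means were 0, 0.0224 and 0.00433 FPKM with DMSO and 0.0347, 0.0980 and 0.0282 FPKM with DADA. *Lyz2*, *Cd14* and *Siglech* overlapped between the groups. Natural killer markers summed to 0.163 FPKM or less with DMSO and 0.395 or less with DADA, and erythroid markers to 0.426 FPKM or less. Of the natural killer list, *Klrb1c* was higher without overlap, at 0.0484 FPKM or less with DMSO and 0.144 to 0.249 FPKM with DADA. *Ncr1*, *Klra4* and *Klra8* overlapped between the groups. The CD4 T cell list summed to 16.1 to 17.2 and 15.2 to 15.7 FPKM, nearly all of it *Zbtb7b*, which was lower with DADA. Below the filter, *Foxp3* was higher without overlap, at 0.0426 to 0.103 FPKM with DMSO and 0.187 to 0.268 FPKM with DADA, and *Cd4* overlapped. The part of these low markers in the difference of the heavy chains was not tested. The higher summed level of CD8 T cell markers moved with the heavy chains, and its part in their difference was not tested. The total of all FPKM values was 450473 to 456939 with DMSO and 438299 to 449480 with DADA, and the depth estimated from the steps of low values was 13430000 to 16490000 fragments with DMSO and 15550000 to 19170000 with DADA.

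The tested genes whose level followed the members' mean most closely over the 8 libraries were *Ifit1*, *Fads2*, *Tap1*, *Vim* and *Pim2*, each with a Pearson correlation of 0.999. The libraries fall into their groups, so any gene with a clean difference scores highly: 439 genes had a correlation over 0.99. These values are a description only. *Ifit1*, an interferon-induced gene, went from 0.398 to 16.9 FPKM. Its DMSO mean was under the filter's limit of 1 FPKM, so it entered this ranking through the DADA libraries, where it was high.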

How the data were processed

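Bulk RNA-seq libraries were assigned to DMSO or DADA by their titles. Per the labels and methods, reads were paired, 150 bp long, and the values the authors deposited are FPKM for each gene. The submitters' processing notes name CASAVA 1.8.2, FastQC 0.11.9, HISAT2 2.0.5, StringTie 1.3.3, Picard 1.41 and SAMtools 0.1.18, and list the builds GRCh38 and GRCm39. How fragments shared by several genes were counted is not given in the sources used here.

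The 10 genes and all gene lists were chosen with earlier results of these data known. From each list, the 3 genes with the highest mean FPKM and the one with the greatest called change in each direction were named, with *B2m*, *Tap1*, *Nlrc5*, *Klrd1* and *Klrc1* always. *H2-Aa*, *Klra3* and all named marker genes of other cell types, among them *Zbtb7b*, *Ebf1* and *Cd79b*, were named after their values were seen. Some list genes are not reported here by name. Values were analysed as log2(FPKM + 1) for 10666 genes with 1 FPKM or more in at least 4 libraries, using limma 3.58.1 in R 4.3.3 (mean-variance trend, Benjamini-Hochberg adjustment, calls under 0.05); the script was tested on simulated data. Pairs were tested by two-sided exact permutation over 70 assignments. FPKM holds no counts, so depth was estimated from the steps of low values; only 36.4% to 49.8% of them lay near whole fragments, where chance gives 20%, so it is rough and no count test was run. Promoter letters were searched in RefSeq GRCm38.p6 windows of 300 bases, and the interferon regulatory factor core was added after the sequences had been seen. Replicate numbers did not pair the samples. Alternatives were other pseudocounts (0.1), filters, scalings and models, merged copies, and each library left out.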

Additional observations from a re-analysis of the deposited data

Results flagged for a closer look

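In 5 of 86 gene groups of 4 libraries, 1 library stood apart from the other 3, by a gap to the nearest that took more of the group's range than Dixon's 95% critical value allows; chance gives about 1 in 20 such groups. Among the heavy chains these were *H2-T24* in DMSO replicate 4, at 3.79 FPKM against 2.75 in each of the others (ratio 0.997), and *H2-M3* in DADA replicate 1, at 22.6 FPKM against 20.05 to 20.4 (ratio 0.852). Without the library in question, the log2 difference was 1.74 for *H2-T24* and 0.12 for *H2-M3*, and both stayed called by limma. Outside the heavy chains they were *Calr* in DMSO replicate 4, at 243 FPKM against 249.04 to 249.8 (ratio 0.894), *Mr1* in DMSO replicate 2, at 4.73 FPKM against 5.13 to 5.15 (ratio 0.949), and *Cd8b1* in DMSO replicate 4, at 146 FPKM against 152 to 153 (ratio 0.838). DMSO replicate 4 was the library in 3 of the 5.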

How the results depend on the processing

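Of 943 comparisons of a result with its value under another setting, 915 were rated the same. For a tested difference this meant the same direction and side of the threshold. Counts, the list median, sums and pair differences with 1 library left out were rated by how far the value moved. The count of heavy chain genes called higher was 9 in every fit, except that it was 8 of 8 with near-identical copies merged, which also moved the median log2 difference of the members from 0.55 to 0.60. Rescaling the libraries to a common total moved the difference of the summed heavy chains from 35.9% to 39.0%. *H2-T10*, not called in any fit, was at 0.022 instead of -0.0079 after that rescaling, and at -0.033 to 0.018 with 1 library left out, above 0 without DMSO replicate 1 (0.018) or DADA replicate 2 (0.0072); the cause was not tested. Leaving out 1 library at a time gave 6491 to 6800 called genes against 7064. The replicate number did not pair the samples (correlations of same-numbered libraries 0.0953, -0.120, -0.0877 and 0.0751), and a replicate block gave 6995 called genes. With 1 library left out, the pair differences are values without a test, since fewer assignments cannot pass the threshold after adjustment. The log2 difference of *H2-T24* was 1.92 with a pseudocount of 0.1. Scaling moved the median of all genes between -0.05 and 0.01. Among the genes with a fragment estimate, depth limits *H2-Q2* most, then *H2-Q10* and *H2-T24*, with DMSO. No estimate was made for *H2-Bl* and *H2-T25*, which reached at most 2.54 and 1.57 FPKM with DMSO. Shared sequence limits the H2-Q and H2-T genes at any depth.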

Other observations

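Class I-like genes below the filter were low in both groups. *Hfe*, whose product takes part in iron sensing, stood at 0.0417 FPKM or less in the DMSO libraries and at 0.188 to 0.242 FPKM in the DADA libraries. *Fcgrt*, the heavy chain of the neonatal Fc receptor, was at 0.0420 FPKM or less with DMSO and at 0.0385 to 0.143 FPKM with DADA, with overlapping groups. *Azgp1* was listed at 0 in every library. Among class I genes of the H2 locus, *H2-T26* was at 0.285 FPKM or less with DMSO and at 0.542 to 0.760 FPKM with DADA. These genes were not tested, and they were named after their values were seen.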
